A study of Homo sapiens with 6 samples.

Results

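The 10 genes described here are the BMP ligands BMP2, BMP4 and BMP7, the extracellular antagonists FST, GREM1 and NOG, and the ID genes ID1, ID2, ID3 and ID4. They were picked by name, as rows of a read count table of 60624 genes, and all 10 names were found. Bone morphogenetic proteins (BMPs) are secreted ligands of the TGFB family that bind pairs of type I and type II receptor kinases, which phosphorylate SMAD1, SMAD5 and SMAD9. These SMADs enter the nucleus with SMAD4, and the ID genes are their best known direct targets. ID proteins have a helix-loop-helix domain but no basic DNA-binding region, so they pair with E proteins such as TCF3, TCF4 and TCF12 and keep them off DNA. Noggin (NOG) and gremlin 1 (GREM1) bind BMP ligands outside the cell, and follistatin (FST) binds activins and, more weakly, some BMPs.

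PolyA RNA came from A549 (A-549 in the labels), a cell line of human lung adenocarcinoma. The design had 3 biological replicates of parental cells, labelled WT, and 3 of cells in which RAVER1 was deleted by CRISPR/Cas9. RAVER1 encodes an RNA-binding protein that acts with the splicing regulator PTBP1. The title of the series asks how RAVER1 connects TGFB signalling, epithelial-mesenchymal transition and miRNA activity. The knockout titles carry the tag KO2 in all 3 libraries, and nothing in the labels tells whether KO2 is 1 clone. The tests below therefore measure the spread between libraries, not between knockout lines made separately.

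Total counts were between 29811747 and 39910127 per library. RAVER1 itself had 1996 to 2510 counts in the parental and 79 to 112 counts in the knockout libraries. Of 8 epithelial markers all were tested, and 6 were lower and 1 higher. Their summed level was 8482 to 9338 CPM in parental and 6418 to 7098 CPM in knockout libraries. Here CPM is the read count over the library total, in units of 1e6 reads, scaled by the TMM method. Of 9 fibroblast markers 5 were tested, with 4 higher and 1 lower, and the list summed to 75.9 to 82.1 CPM against 92.1 to 100.3 CPM, with DCN at 0 in every library. Among the 4 higher ones, COL3A1 lay below the low-count filter of 0.301 CPM in every parental library. PDGFRA had 0.175, 0.428 and 0.277 CPM there. Both were tested through their knockout level, which favours calls in the upward direction. The 7 endothelial markers, none of them tested, summed to at most 0.0658 CPM (parental) and 0.129 CPM (knockout), with PECAM1, CLDN5 and EMCN at 0, and the 8 leukocyte markers (2 tested, neither past the threshold) to 9.35 to 10.9 CPM against 8.90 to 9.49 CPM, with CD3E and HLA-DRA at 0. At the same threshold, an edgeR adjusted p under 0.05, 21.3% of all genes tested were higher and 20.1% lower. The part of these markers in the results below was not tested.

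All 10 genes had enough reads to be tested, although NOG reached the low-count filter of 0.301 CPM only in parental libraries and ID4 only in knockout libraries. With an edgeR adjusted p under 0.05 as the threshold, 4 of the 10 genes were higher in knockout cells, 3 were lower and 3 were not past it. Of all 16652 genes tested, 41.4% passed the threshold, 21.3% as higher and 20.1% as lower. The libraries of the groups did not overlap for 7 of the 10 genes, 4 higher and 3 lower, beside 50.2% of all genes (25.3% higher, 24.8% lower). A called change of at least 2-fold was seen for 6, 3 in each direction, beside 6.83% of all genes (3% higher, 3.83% lower). The genes that were higher are all 4 ID genes, and those that were lower are 1 ligand, BMP4, and 2 antagonists, GREM1 and NOG. The median log2 fold change of the 10 genes was 0.22, beside 0.0019 over all genes tested. RNA was taken from whole cultures, in which fewer cells with a transcript and less of it per cell cannot be told apart.

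**Figure D1:**
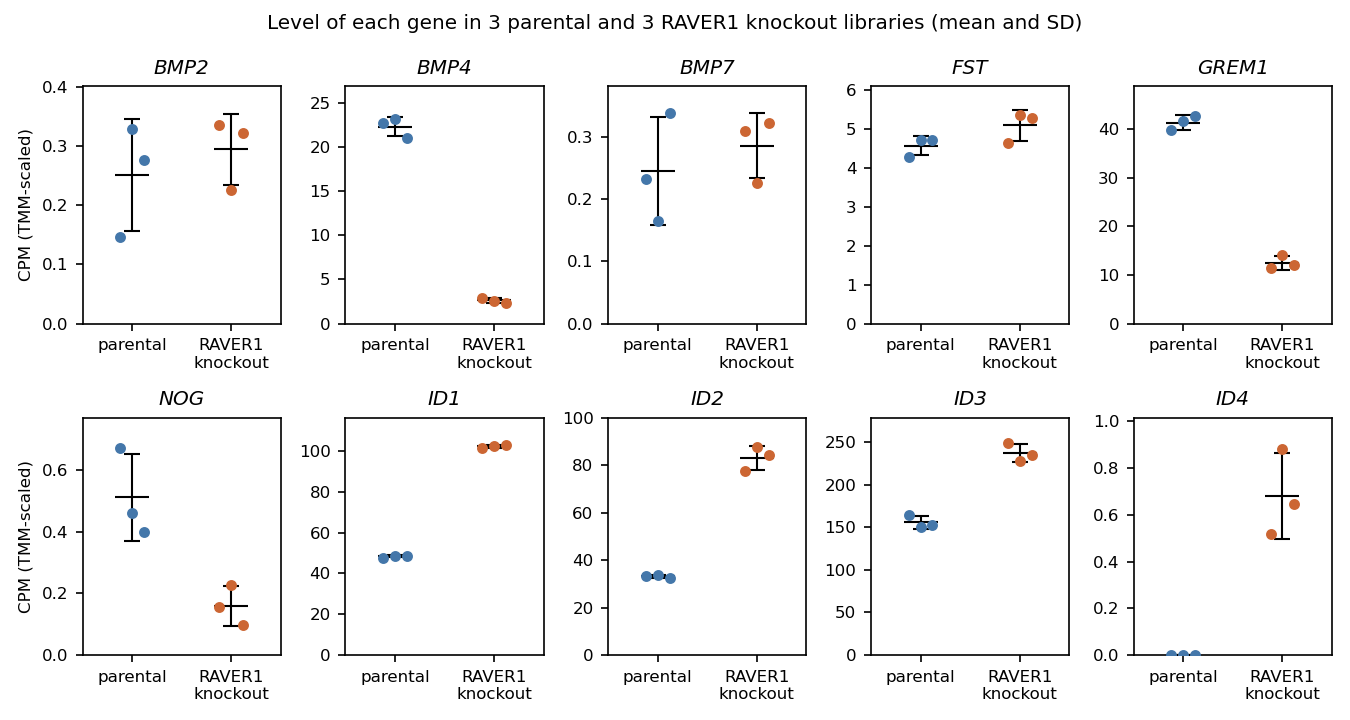
Level of each of the 10 genes in every library, in TMM-scaled CPM on linear axes from 0. Points are single libraries and bars are the mean and SD of 3 libraries. BMP4 lay between 21.1 and 23.2 CPM in parental and between 2.38 and 2.87 CPM in knockout libraries, and ID4 was at 0 in all parental libraries.

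The ID genes carry the clearest shared change, so the stretches before their transcription starts are shown first. The sequences come from RefSeq on GRCh38.p14, where 7 of the 10 genes were matched (not BMP2, BMP7 and NOG). Each line gives the 250 bases before the start, 5′ to 3′ on the strand of the gene. ID1 lies at chr20:31605039-31605288 (plus strand), ID2 at chr2:8681806-8682055 (plus), ID3 at chr1:23559502-23559751 (minus) and ID4 at chr6:19837120-19837369 (plus). Capitals mark every match to the CCAAT box (CCAAT, or ATTGG on the other strand) and to the TATA box (TATAAA, or TTTATA on the other strand).
ID1: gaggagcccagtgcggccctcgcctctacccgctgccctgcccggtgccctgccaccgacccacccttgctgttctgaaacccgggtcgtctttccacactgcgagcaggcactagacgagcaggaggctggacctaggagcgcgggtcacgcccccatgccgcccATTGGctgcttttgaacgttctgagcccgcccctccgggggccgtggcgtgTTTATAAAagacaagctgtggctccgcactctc
ID2: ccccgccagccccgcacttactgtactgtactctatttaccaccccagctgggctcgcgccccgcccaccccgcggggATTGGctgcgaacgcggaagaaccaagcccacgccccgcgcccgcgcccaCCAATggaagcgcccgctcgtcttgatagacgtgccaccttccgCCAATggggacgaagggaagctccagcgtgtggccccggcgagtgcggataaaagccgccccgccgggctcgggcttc
ID3: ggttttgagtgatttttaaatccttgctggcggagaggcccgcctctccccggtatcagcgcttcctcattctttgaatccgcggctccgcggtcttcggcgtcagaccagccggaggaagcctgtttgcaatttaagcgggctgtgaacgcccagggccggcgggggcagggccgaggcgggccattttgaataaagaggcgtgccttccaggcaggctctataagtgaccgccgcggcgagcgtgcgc
ID4: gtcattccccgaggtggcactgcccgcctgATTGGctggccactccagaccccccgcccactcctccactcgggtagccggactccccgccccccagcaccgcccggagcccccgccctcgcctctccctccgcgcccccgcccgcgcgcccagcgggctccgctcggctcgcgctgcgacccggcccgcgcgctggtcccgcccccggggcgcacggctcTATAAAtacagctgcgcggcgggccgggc

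A CCAAT box was found in the windows of ID1 (starting 84 bases before the start), ID2 (3 matches, at 172, 122 and 78 bases before it) and ID4 (220 bases before it), and not in that of ID3. Of 35116 RefSeq promoter windows of the same length, 32.0% held this motif on either strand. The TATA box was found in ID1, where matches on both strands overlap at 33 and 31 bases before the start, and in ID4, 29 bases before it, and 10.7% of all windows held it. The GC-rich SMAD element GGCGCC, held by 16.4% of windows, was in none of the 4 ID windows, in 1 of 3 annotated starts of BMP4 and in 1 of 2 of GREM1. The short SMAD-binding element CAGAC, searched on both strands and held by 38% of windows, was in ID3 and ID4, in 2 of 3 starts of BMP4 and in 2 of 2 of GREM1. These are matches of letters within 250 bases and do not show binding. The gene counts do not tell which annotated start of BMP4 or GREM1 was used, and the same holds for ID2 and ID3. In GENCODE release 29 the ID2 gene runs from 8678845 to 8684453 and ID3 from 23557918 to 23559794. The windows of both genes lie inside these spans, so the RefSeq starts shown are not the outermost starts of that release.

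Among the ligands, BMP4 fell and the other two were near the limit of detection. BMP4 (ENSG00000125378, hg38 chromosome 14, 53949736 to 53958761, minus strand) is a ligand of early mesoderm and of lung and gut development. It had 22.8, 23.2 and 21.1 CPM in parental replicates 1, 2 and 3, and 2.87, 2.59 and 2.38 CPM in knockout replicates 1, 2 and 3. Every knockout library lay far below every parental library, at a mean of 2.61 ± 0.244 against 22.3 ± 1.11 CPM (SD, n = 3 each). The log2 fold change was -3.09 (SE 0.093, edgeR adjusted p 5.42e-15), which left 11.8% of the parental level. Only 0.817% of the genes tested had a larger absolute log2 fold change.

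BMP2 and BMP7, ligands of bone and kidney development among other tissues, had few reads. BMP2 (ENSG00000125845, chromosome 20, 6767664 to 6780280, plus strand) was read 5, 10 and 9 times in parental replicates and 13, 9 and 10 times in knockout replicates. BMP7 (ENSG00000101144, chromosome 20, 57168748 to 57266629, minus strand) was read 8, 5 and 11 times against 12, 9 and 10. The groups overlapped for both genes, and neither passed the threshold, with log2 fold changes of 0.24 for BMP2 (95% interval -0.59 to 1.07, edgeR adjusted p 0.676) and 0.20 for BMP7 (-0.62 to 1.02, edgeR adjusted p 0.731). These intervals hold no change, a rise of up to about 2-fold, and a fall to -0.59 (BMP2) or -0.62 (BMP7) on the log2 scale. The smallest change that could be detected at this depth was not tested. The sign of BMP2 turned without parental replicate 1 (-0.046) and that of BMP7 without parental replicate 2 (-0.0065).

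BMP4 made up most of the summed ligand level in both groups, with a smaller share in knockout cells. Per kilobase of the gene length given in the table, the 3 ligands summed to 7.43, 7.61 and 6.95 CPM per kb in parental replicates 1, 2 and 3 and to 1.08, 0.942 and 0.920 CPM per kb in the knockout replicates. BMP4 held 98.9%, 98.4% and 98.0% of that sum in the parental replicates and 85.9%, 88.8% and 83.7% in the knockout replicates. Each knockout library had a lower BMP4 share than each parental one, by 12.3 percentage points on average, while the shares of BMP2 and BMP7 were higher by 7.51 and 4.77 points. With 3 libraries against 3 the exact two-sided permutation test cannot go below 0.1, and each of the 7 shares tested for ligands and ID genes had that p, also after Benjamini-Hochberg adjustment. The shares of a sum depend on each other.

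Among the antagonists, GREM1 and NOG fell and FST did not pass the threshold. GREM1 (ENSG00000166923, chromosome 15, 32717974 to 32745107, plus strand) had 39.7, 41.5 and 42.7 CPM in parental cells and 11.3, 14.0 and 12 CPM in knockout cells. The groups were well apart, and the log2 fold change was -1.73 (SE 0.074, edgeR adjusted p 9.58e-13), or 30.2% of the parental level. Its exons overlap those of AC090877.2 on the opposite strand, which was read only 15 to 28 times per parental and 5 to 9 times per knockout library, while GREM1 had 373 counts or more in every library.

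NOG (ENSG00000183691, chromosome 17, 56593699 to 56595590, plus strand) was scarce, with counts of 23, 14 and 13 in the parental and 6, 9 and 3 in the knockout libraries. These correspond to 0.511 ± 0.142 and 0.159 ± 0.0649 CPM (SD, n = 3 each), and the groups did not overlap. The log2 fold change was -1.63 (95% interval -2.44 to -0.81, edgeR adjusted p 0.00232). NOG passed the low-count filter only through its parental level, and without a filter it was called as well (-1.63, edgeR adjusted p 0.000507, with a range over the alternatives of 0.000507 to 0.022).

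FST (ENSG00000134363, chromosome 5, 53480409 to 53487134, plus strand) had 4.29, 4.71 and 4.71 CPM in the parental and 4.63, 5.35 and 5.28 CPM in the knockout libraries. Knockout replicate 1 lay below parental replicates 2 and 3, so the groups overlapped. The log2 fold change was 0.16 (95% interval -0.076 to 0.39, edgeR adjusted p 0.283), an interval that holds no change and a rise of up to 0.39. Per kilobase, FST was the antagonist with the highest level in knockout cells, at 1.85 ± 0.145 CPM per kb against 0.843 ± 0.0948 for GREM1, whereas GREM1 led in parental cells, at 2.79 ± 0.101 against 1.66 ± 0.0879 CPM per kb (SD, n = 3 each). This order rests on the deposited length of GREM1, 14784 bases.

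All 4 ID genes rose. ID1 (ENSG00000125968, chromosome 20, 31605283 to 31606515, plus strand), the ID gene most often used as a readout of BMP signalling, had 47.8, 48.7 and 48.6 CPM in the parental and 101.2, 102.6 and 102.7 CPM in the knockout libraries. The libraries of a group lay within a few percent of each other, and the groups did not overlap. ID1 was 2.11-fold higher, a log2 fold change of 1.08 (SE 0.046, edgeR adjusted p 7.64e-13).

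ID2 (ENSG00000115738, chromosome 2, 8678845 to 8684453, plus strand) is induced by BMP as well as by other signals. It had 33.4, 33.8 and 32.6 CPM in the parental and 77.7, 87.5 and 84.5 CPM in the knockout libraries, again with no overlap. It was 2.50-fold higher (log2 fold change 1.32, SE 0.055, edgeR adjusted p 6.93e-13). Genes of chromosome 2 had a median log2 fold change of 0.42 over 1125 tested, and 43 of them, 3.82%, changed by as much as ID2 or more in the upward direction, ID2 included. The part of the chromosome-wide shift in the value of ID2 was not tested. Exons of ID2 overlap those of ID2-AS1 on the opposite strand, which had 90 to 104 counts in parental and 142 to 173 in knockout libraries, against 1028 or more for ID2. Whether the counting used the strand is not given in the sources used here.

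ID3 (ENSG00000117318, chromosome 1, 23557918 to 23559794, minus strand) had the highest level of the family in each library. It stood at 163.9, 150.7 and 152.7 CPM in the parental and 248.7, 227.9 and 234.4 CPM in the knockout libraries. The groups were apart, with a log2 fold change of 0.61 (SE 0.046, edgeR adjusted p 3.94e-09), or 1.52-fold, a smaller change than those of ID1 and ID2, whose 95% intervals of 0.98 to 1.18 and 1.21 to 1.44 lie above that of ID3 at 0.51 to 0.70.

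ID4 (ENSG00000172201, chromosome 6, 19837386 to 19840684, plus strand) is the member of the family with the most restricted expression. It had 0 counts in each of the 3 parental libraries and 20, 35 and 20 counts in the knockout libraries. With the parental group set to a floor of 3 counts over its 3 libraries, ID4 was at least 22.2-fold higher in knockout cells (edgeR adjusted p 1.35e-06). It passed the low-count filter through the knockout libraries only, and its level of 0.680 ± 0.184 CPM (SD, n = 3) remained far below those of the other 3. AL022068.1, an annotated RNA on the opposite strand that overlaps the ID4 gene but none of its exons, was read 0 times in parental cells and 13, 9 and 16 times in knockout replicates 1, 2 and 3.

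**Figure D2:**
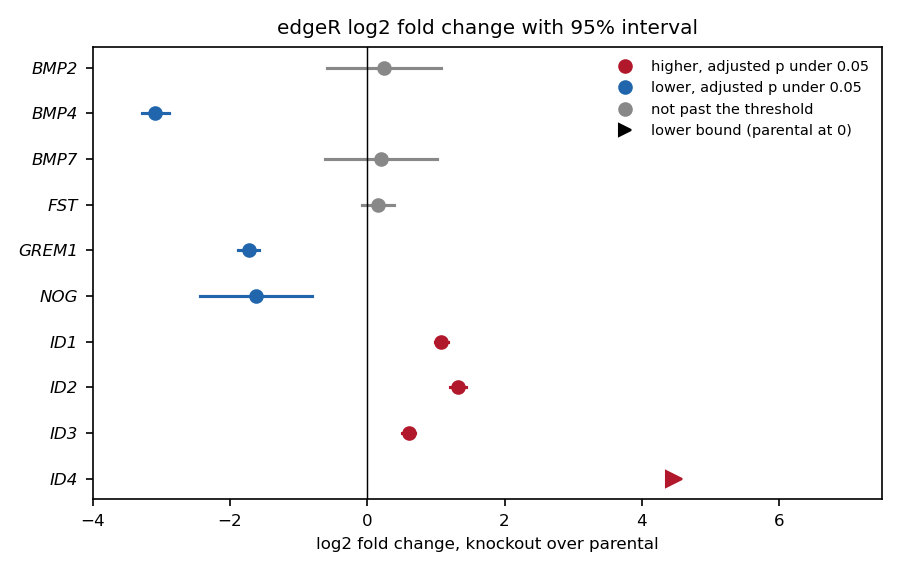
Log2 fold change of each gene, knockout over parental, from edgeR, with lines for the 95% interval (3 libraries a group). The triangle of ID4 is a lower bound, since all parental counts were 0. BMP4, GREM1 and NOG lie to the left of 0 and the 4 ID genes to the right, while the intervals of BMP2, BMP7 and FST include 0.

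The summed ID level rose and its make-up shifted away from ID3. Per kilobase, the 4 genes summed to 163.4, 155.5 and 156.2 CPM per kb in the parental replicates 1, 2 and 3 and to 283.6, 275.3 and 278.4 CPM per kb in the knockout replicates, a ratio of means of 1.76. ID3 held 65.7% ± 1.19 of the sum in parental and 56.7% ± 1.69 in knockout libraries (SD, n = 3 each). ID1 went from 24.8% ± 0.937 to 29.7% ± 0.666 and ID2 from 9.50% ± 0.298 to 13.5% ± 1.01, and the groups did not overlap for any of the 3 shares. The share of ID4 was 0.0631% in knockout libraries. These shares do not depend on library scaling, and their exact permutation p is 0.1, the smallest the design allows.

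**Figure D3:**
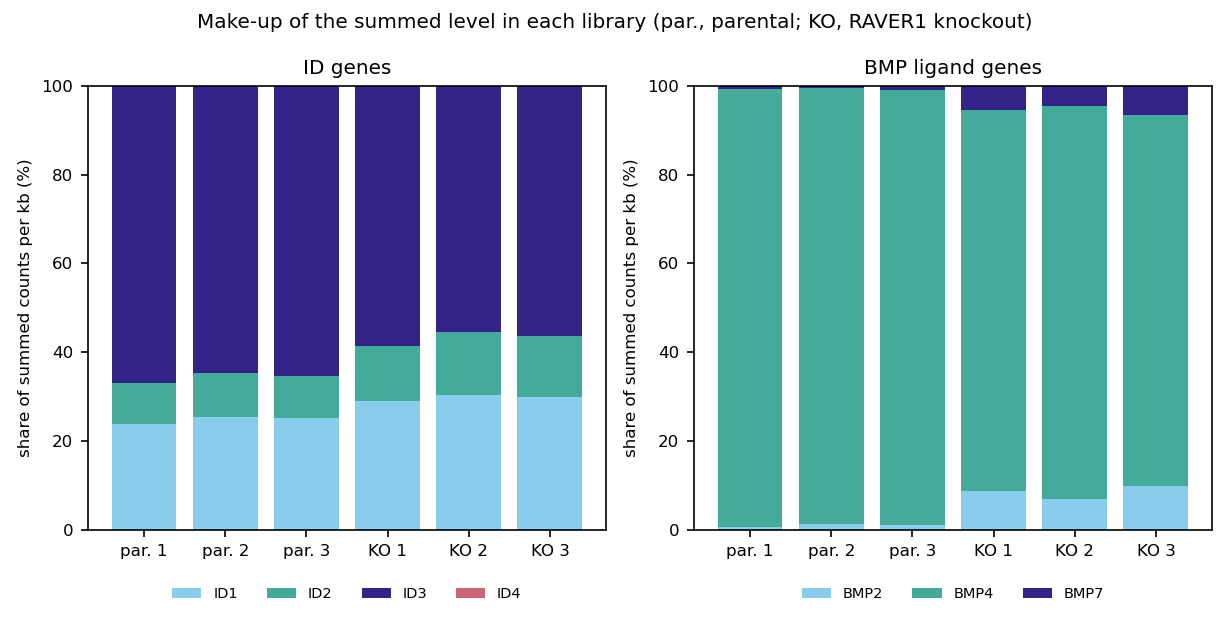
Share of each gene in the summed counts per kb of its family, in percent, one bar per library (par., parental; KO, RAVER1 knockout). The ID3 share lies between 64.8% and 67.0% in parental and between 55.3% and 58.6% in knockout libraries, and the BMP4 share falls from 98.0% or more to 88.8% or less. ID4 is too small to be seen.

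Ranked by level per kilobase in parental cells, ID3 (104 CPM per kb), ID1 (39.2), ID2 (15), BMP4 (7.21), GREM1 (2.79), FST (1.66) and NOG (0.267) followed each other with gaps larger than their SDs. BMP2 (0.0707 ± 0.0266) and BMP7 (0.0453 ± 0.0161 CPM per kb, SD, n = 3) did not differ beyond their spread, and ID4 was at 0. In knockout cells the order was ID3 (158 CPM per kb), ID1 (82.9), ID2 (37.6), FST (1.85), BMP4 (0.844), GREM1 (0.843), ID4 (0.176), NOG (0.0833), BMP2 (0.0832) and BMP7 (0.0528). BMP4 and GREM1 were level there, and so were NOG and BMP2. BMP7 (0.0528 ± 0.0096) lay within the SD of NOG (0.0833 ± 0.0339) but below BMP2 (0.0832 ± 0.0169 CPM per kb) by more than their SDs. That gap rests on the deposited lengths of 3545 bases for BMP2 and 5425 for BMP7. Their knockout counts were 13, 9 and 10 against 12, 9 and 10.

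The wider BMP pathway was described with 6 further lists of 100 genes in all, some of them in 2 lists. Of the 66 genes tested, 24 were higher, 13 lower and 29 not past the threshold. Thus 56.1% passed it, beside 41.4% of all genes tested (21.3% higher, 20.1% lower). These shares of all genes also stand beside the counts of each list below. The median log2 fold change was 0.047, beside 0.0019 for all genes. List genes on chromosome 2 were higher in 8 of 9 cases, beside 66.8% of all tested chromosome 2 genes. Outside chromosome 2 there were 16 higher and 12 lower of 57. The number of lower genes fell to 7 without parental replicate 3 and to 8 without knockout replicate 3.

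Other ligands of the BMP, GDF and activin families were mostly scarce, and 12 of 20 did not reach the low-count filter. Of the 8 tested, 1 was higher, 4 were lower and 3 were not past the threshold, with a median of -0.21. INHBB, which encodes the beta B subunit of activins and inhibins and lies on chromosome 2, fell from 56.9 ± 1.95 to 28.3 ± 0.764 CPM (SD, n = 3 each, with a log2 change of -1.0, SE 0.055). BMP6 fell by 0.40 (SE 0.11) and BMP8B by 0.22 (SE 0.076) on the log2 scale. Leaving out parental replicate 1, parental replicate 3 or knockout replicate 2 ended the BMP8B call. The 2 ligands then lower were INHBB and BMP6. The call of GDF11 (-0.20 with all libraries, named after its value was seen) ended there too. GDF6 was higher (log2 fold change 2.35, SE 0.47) from counts of 3, 1 and 3 to counts of 13, 18 and 11. It passed the filter through its knockout level only, and the number of higher ligands was 2 with no filter, while GDF6 was not tested at a minimum of 1 CPM.

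Other secreted modulators of BMP activity included large rises. Of 11 tested, 5 were higher, 1 lower and 5 not past the threshold, with a median of 0.10, which was -0.00047 over the 10 genes outside chromosome 2. BMPER, which encodes a modulator that binds BMPs, had 0.292, 0.263 and 0.0923 CPM in the parental and 3.96, 5.43 and 3.83 CPM in the knockout libraries, a log2 fold change of 4.34 (SE 0.27). CHRDL2, a relative of the antagonist chordin, had 0.175, 0.132 and 0.185 CPM against 2.51, 1.51 and 1.71 CPM (3.51, SE 0.32). The groups did not overlap for either gene, but both lay below the filter of 0.301 CPM in every parental library and were tested through their knockout level only. With no filter their log2 fold changes were 4.34 and 3.51, and both were called. FSTL1, a secreted follistatin-like protein, rose from 21.9 ± 0.499 to 74.6 ± 2.60 CPM (1.77), and CRIM1, a membrane protein that binds BMPs, from 171 ± 5.93 to 403 ± 20.4 CPM (1.23, on chromosome 2; SD, n = 3 each). The 1 lower gene was NBL1 (-0.20), named after its value was seen. Its call ended with parental replicate 1, parental replicate 3 or knockout replicate 3 left out, and with any one of the other libraries left out 2 genes were lower.

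Receptors moved both ways, with 4 of 10 tested higher, 3 lower and 3 not past the threshold, and a median of 0.18. Outside chromosome 2 there were 1 higher and 3 lower of 7, with a median of 0.050. BMPR2, the type II BMP receptor, had 35.5, 43.9 and 40.9 CPM in the parental and 60.3, 68.6 and 67.9 CPM in the knockout libraries (log2 fold change 0.71, SE 0.070), and the type I receptor ACVR1 rose by 0.38 (SE 0.065). Of the 4 higher genes, 3 lie on chromosome 2, BMPR2 and ACVR1 among them. The co-receptor TGFBR3, on chromosome 1, rose by 0.78 (SE 0.083). The type I receptor BMPR1B fell by 0.56 (SE 0.087) and the decoy receptor BAMBI, itself a BMP target, by 0.20 (SE 0.058). BMPR1A, another type I receptor, stood at 0.16 (SE 0.069, edgeR adjusted p 0.0671). It was called without parental replicate 2 (0.22) or knockout replicate 1 (0.23), and with scaling from genes outside chromosome 2 (0.18).

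The SMAD genes moved both ways. Of 16 tested genes of SMADs and their regulators 4 were higher, 2 lower and 10 not past the threshold, with a median of 0.023. SMAD1, which carries the BMP signal, fell from 14.9 ± 0.459 to 11.8 ± 0.825 CPM (SD, n = 3 each; log2 change -0.33, SE 0.077). SMAD9, the third SMAD of this branch, was below the low-count filter, with counts of 0, 1 and 0 in parental and 4, 6 and 2 in knockout replicates. SMAD5, a close relative of both, stood at 0.043 (SE 0.061) and the common partner SMAD4 at 0.0056 (SE 0.059). SMAD4 turned below 0 when parental replicate 1 (-0.008), parental replicate 3 (-0.028) or knockout replicate 2 (-0.028) was left out and with upper-quartile scaling (-0.027), and SMAD5 without parental replicate 1 (-0.0081). SMAD7, an inhibitory SMAD that TGFB and BMP signals induce, rose by 0.40 (SE 0.064), while SMAD6, the inhibitory SMAD of the BMP branch, stood at 0.097 (SE 0.051, edgeR adjusted p 0.147). TOB1, a repressor of BMP signalling, rose by 0.51 (SE 0.045), the phosphatase gene CTDSP1, on chromosome 2, by 0.54 (SE 0.052) and SKIL by 0.42 (SE 0.094). The libraries of SKIL overlapped between groups, with 40.1 CPM in parental replicate 2 and 39.3 CPM in knockout replicate 1. The number of lower genes was 1 without parental replicate 3 or knockout replicate 3.

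Of 16 other tested genes known as BMP targets 9 were higher, 2 lower and 5 not past the threshold, and the median was 0.52, or 0.44 over the 14 genes outside chromosome 2. The number of higher genes was 7 to 9 with 1 library left out and 7 to 10 over all 14 alternatives. The number of lower genes stayed at 2. ATOH8, a bHLH transcription factor on chromosome 2, had 1.31, 1.251 and 1.2 CPM in the parental and 9.49, 9.35 and 8.99 CPM in the knockout libraries (log2 fold change 2.88, SE 0.12). SNAI2, a repressor of epithelial genes, rose by 2.02 (SE 0.11) and RUNX2, the bone transcription factor, by 1.82 (SE 0.13). KLF4, a Krüppel-like factor of epithelial cells, fell from 21.4 ± 1.96 to 7.94 ± 0.800 CPM (SD, n = 3 each, -1.43, SE 0.089). MSX1 (0.11, SE 0.12) and MSX2 (-0.0014, SE 0.10), homeobox genes that BMP induces in the embryo, were not past the threshold, and were named after their values were seen.

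**Figure D4:**
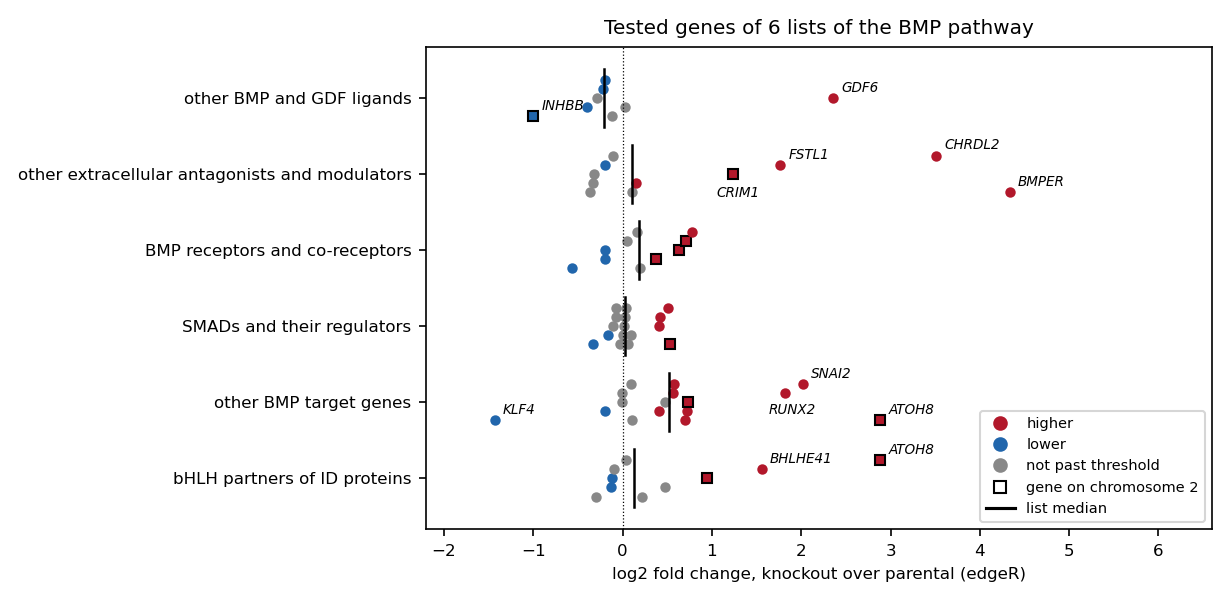
Log2 fold change (knockout over parental, edgeR) of the tested genes of 6 lists of the BMP pathway. Each point is a gene, squares with a black edge lie on chromosome 2, vertical bars are list medians, and points are spread vertically only for sight. The highest values are those of BMPER (4.34) and CHRDL2 (3.51), the median of the target list is 0.52, and the lists share some genes, such as ATOH8.

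Of the 3 E proteins named above, which the ID proteins bind, TCF3 and TCF12 moved little at the RNA level, while TCF4 had a wider interval. TCF3 stood at 126 ± 4.62 CPM before and 116 ± 2.63 CPM after the deletion (SD, n = 3 each), which is a log2 difference of -0.12 (SE 0.044, edgeR adjusted p 0.0426). That call held without parental replicate 2 and was lost without any other single library (-0.093 to -0.13), and also with no filter (-0.12) or with scaling from genes outside chromosome 2 (-0.099). TCF4 was at -0.30 (SE 0.125, 95% interval -0.56 to -0.033, edgeR adjusted p 0.0668). It passed without parental replicate 1 (-0.39) or knockout replicate 2 (-0.46), with upper-quartile scaling (-0.33) and with no filter (-0.29). TCF12 was at 0.033 (SE 0.052, edgeR adjusted p 0.657). Of 10 tested bHLH genes 3 were higher, 2 lower and 5 not past the threshold, with a median of 0.13. Outside chromosome 2 the list had 1 higher and 2 lower of 8, and its median was -0.033. The higher genes were ATOH8, TWIST2 (0.95, SE 0.077, also on chromosome 2) and BHLHE41 (1.56, SE 0.27, at 0.337 and 1.01 CPM). The lower genes were TCF3 and BHLHE40 (-0.13, SE 0.043). The call of BHLHE40 held only when replicate 1 of either group was dropped. Dropping replicate 3 of either group ended the calls of both TCF3 and BHLHE40, and no gene of the list was then lower. Both calls also ended once knockout replicate 2 was dropped, where the 1 lower gene was TCF4 (-0.46). The 1 lower gene was TCF3 with parental replicate 2 dropped and BHLHE40 with knockout replicate 1 dropped.

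The genes next to the members were read to see how far along the chromosome each change reached. For each gene the 5 tested genes on either side were taken, by start position in GENCODE release 29. Beside the counts of neighbours below stand the shares of all genes tested, 21.3% higher and 20.1% lower. GREM1 lies between SCG5 and FMN1, and both fell by similar amounts. FMN1, which encodes the actin regulator formin 1 and starts 47.6 kb away in coordinate, was at 10.03 CPM before and 3.19 CPM after the deletion (-1.65 on the log2 scale, SE 0.11), and SCG5, at 0.868 and 0.308 CPM, was at -1.52 (SE 0.32). The next genes outward, ARHGAP11A (0.065) and AVEN (0.015), were not past the threshold. Of the 10 neighbours of GREM1, 3 were lower, 2 higher and 5 not past the threshold, with a median of 0.055. The lower ones include AC090877.2 (-1.99), whose exons overlap those of GREM1. The higher ones were GOLGA8O (0.92) and KATNBL1 (0.21). Next to BMP4, the long noncoding RNA LINC02331, 181 kb away in start position, fell from 1.80 to 0.351 CPM (-2.36, SE 0.24), and of the other 9 neighbours 1 was higher and 8 were not past the threshold. Around ID1, 1 of 10 neighbours was higher, 2 were lower and the median was -0.034, and around ID3 3 of 10 were lower and 7 not past the threshold, with a median of -0.040. Around ID2, 8 of 10 neighbours were higher, with a median of 0.40 and a range of -0.037 to 0.88, all below the 1.32 of ID2 itself. That count and median are near those of chromosome 2 as a whole, where 752 of 1125 tested genes (66.8%) were higher with a median of 0.42. The named neighbours were picked after their values were seen.

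**Figure D5:**
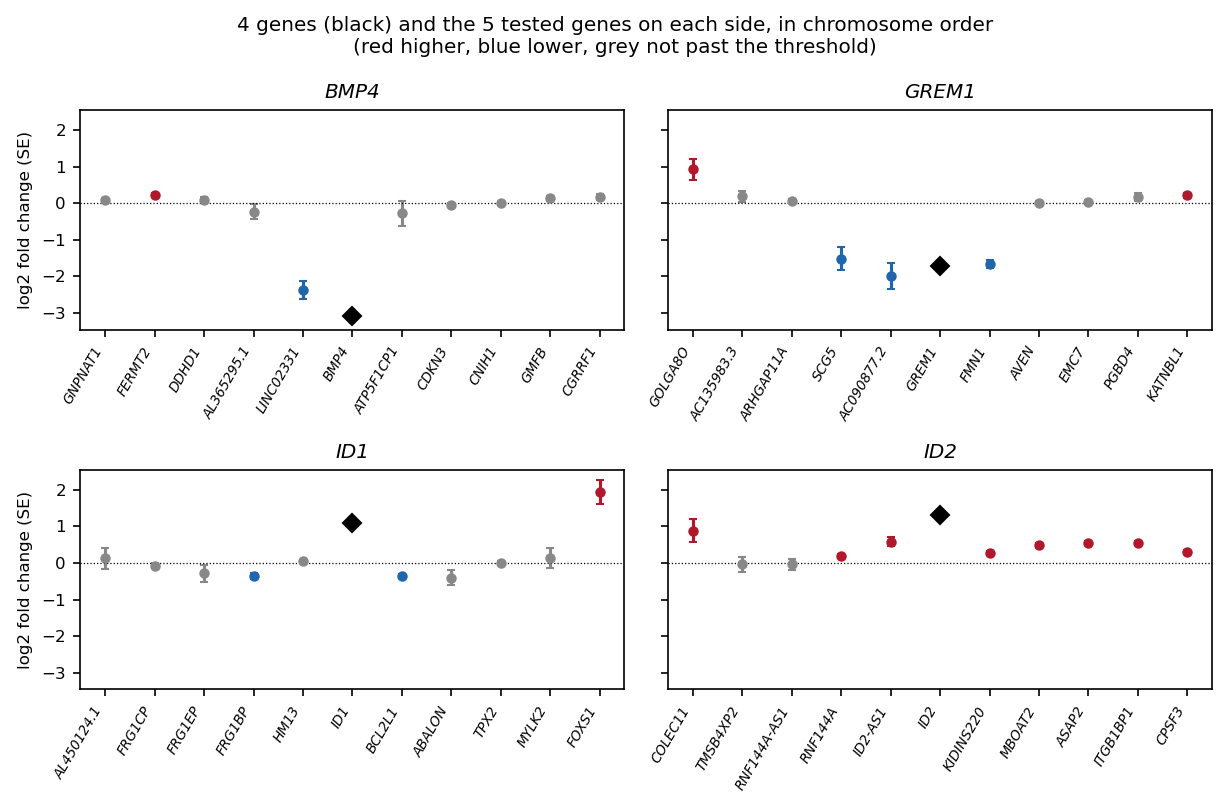
Log2 fold change with SE (edgeR, knockout over parental) of BMP4, GREM1, ID1 and ID2 (black diamonds) and of the 5 tested genes on each side in chromosome order. Red points are higher, blue points lower and grey points not past the threshold. SCG5, AC090877.2 and FMN1 lie near GREM1 at -1.52 to -1.99, and the neighbours of ID2 lie mostly above 0. The knockout mean of AC090877.2 (0.173 CPM, against 0.695 CPM in parental cells) is below the low-count filter of 0.301 CPM.

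The genes whose pattern over the 6 libraries was most like that of a member were found by the root mean square difference in log2 CPM, centred on the parental mean. Nearest to BMP4 were LINC02582 (difference 0.0892), PELI1 (0.11) and FAM110B (0.127), with log2 fold changes of -3.16, -3.27 and -3.08. Nearest to ID1 were EPAS1 (0.0304), which encodes the hypoxia factor HIF-2alpha, NPY4R2 (0.0402) and the WNT antagonist SFRP1 (0.0492), with 1.07, 1.05 and 1.03. Nearest to ID2 were POPDC3 (0.0328), ANKRD33B (0.0499) and the transcription factor ZEB2 (0.0521), with 1.37, 1.30 and 1.29. This likeness comes mostly from a change of the same size between the groups.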

How the data were processed

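RNA-seq gene counts of 6 A549 libraries were used. Per the submitters' processing notes, reads were trimmed with cutadapt 2.8, aligned to hg38 with HISAT2 2.1.0, handled with SAMtools 1.10 and counted with featureCounts 2.0.0. The deposited values are raw read counts per gene, and gene length in bases is a column of the same table. No source used here gives the strand setting, the annotation release or the handling of reads with several matches. Per the labels' protocols, TRIzol and the Illumina Stranded mRNA Prep kit were used.

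The counts entered edgeR 4.0.16 under R 4.3.3 (filterByExpr, TMM, quasi-likelihood F-test, 3 against 3 libraries, no covariate). The Benjamini-Hochberg adjustment ran over all 16652 genes tested, and the threshold was 0.05. Standard errors came from the fold change and the F statistic. CPM used TMM-scaled library sizes. No 2 libraries of a group agreed within sampling noise (chi-square per degree of freedom 2.41 to 8.86). On simulated counts with 16433 genes tested, the fit recovered 44 of 50 genes changed 1.5-fold and 49 of 50 changed 2-fold, and called 14 of 16233 unchanged genes. Positions, neighbours and exon overlaps came from GENCODE release 29, and promoter sequences from RefSeq.

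The members, lists and tests were chosen with earlier results of these data known. Named genes were RAVER1, the 10 members, 12 fixed receptors, SMADs and E proteins, up to 4 called genes per list, by smallest adjusted p, and the 3 genes nearest in pattern to BMP4, ID1 and ID2. Alternatives were RLE and upper-quartile scaling, scaling from genes outside chromosome 2, no filter, a replicate block, a minimum of 1 CPM in 3 libraries, DESeq2 1.42.0, limma-voom (limma 3.58.1) and each library left out in turn. The labels give no batch.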

Additional observations from a re-analysis of the deposited data

How the results depend on the processing

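Of 136 values of the 10 members under 14 alternatives, 134 kept their direction and their side of the threshold. The other 2 were those of BMP2 (-0.046 to 0.47 with 1 library left out) and BMP7 (-0.0065 to 0.48), with at most 13 counts of either gene in a library. With at least 1 CPM in 3 libraries BMP2, BMP7, NOG and ID4 were not tested, which left 3 members higher and 2 lower. Under the other alternatives 4 were higher and 3 lower. With 1 library left out, 7 to 13 genes of the pathway lists were lower (13 with all libraries). The log2 fold change ran from -0.028 to 0.045 for SMAD4, from -0.0081 to 0.099 for SMAD5 and from -0.0023 to 0.081 for TCF12, and with upper-quartile scaling SMAD4 was at -0.027 and TCF12 at -0.00048. The cause was not tested, and these values were not past the threshold.

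Without division by gene length, the knockout minus parental difference in share was 3.78 percentage points for ID1, 5.65 for ID2, 0.161 for ID4, -15.99 for BMP4 and 7.88 for BMP7, with the same directions; this follows from how length enters the sum. Upper-quartile scaling gave 3098 higher and 3872 lower genes, and scaling from genes outside chromosome 2 gave 3813 and 3107.

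With the replicate block, 8346 genes passed in place of 6886, and of the members 4 were higher and 3 lower, as without it. SMAD6 (0.098) was called with the block and under no other alternative. BMPR1A (0.16) and TCF4 (-0.30) were called with the block too, and also under the alternatives given beside their values. Deviations of same-numbered libraries correlated at 0.129, 0.0292 and 0.0142 for replicates 1, 2 and 3, and parental replicate 2 correlated best with knockout replicate 3 (0.0667). The correlation passed 0.1 for 1 of the 3 pairs, and the labels name nothing that same-numbered libraries share, so the numbers were not taken as pairs.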

Other observations

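The values of 4 more genes that flank a member are given here. On the side of ID4 with higher coordinates, the transcription factor gene SOX4, whose start lies 1755 kb away, fell from 87.0 to 43.9 CPM (-0.99 on the log2 scale, SE 0.049), and the long noncoding RNA CASC15, 1827 kb away, fell from 4.19 to 1.32 CPM (-1.67, SE 0.145). ID4 itself went from 0 counts in every parental library to 20 or more in every knockout library. The integrin gene ITGA1, 693 kb from FST in start position, rose from 1.30 to 4.29 CPM (1.72, SE 0.14), while FST was not past the threshold. FOXS1, 239 kb from ID1, rose from 0.198 to 0.759 CPM (1.93, SE 0.33). Its parental mean lay below the low-count filter of 0.301 CPM, so its test leans on its knockout level. All of these values come from edgeR with 3 libraries a group, and these genes were picked once their values were known.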
